A study of Zea mays with 14 samples.

Results

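Total RNA of maize (Zea mays) embryonic axes was compared between dry, quiescent seeds (time 0) and seeds germinated for 24 h on moist cotton. The embryonic axis is the part of the embryo that becomes root and shoot, and each RNA came from 1 g of dissected axes, so each sample is a pool. The comparison used 4 of the 11 biological samples of the series, on 6 of its 14 Affymetrix maize arrays. They were quiescent samples 1 and 2 and the 24 h samples named M4 and RB, chosen by their labels as total RNA of time 0 and time 24 without insulin. Technical arrays of quiescent sample 1 and of M4 were averaged first, which leaves n = 2 a side. The other samples, of polysomal RNA and of axes given bovine insulin, entered the estimate of the spread and a few levels given below. They also entered the mean signals that class or filter probe sets by brightness, and the quantile normalization. No maize variety is named in the labels. Axes of the insulin experiment spent 2 h in culture medium after 22 h of imbibition, and the labels leave unstated if the 24 h axes did too.

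A mature maize seed holds mRNA that was stored as the seed dried. Its embryo is rich in messages for storage globulins, oil body proteins and late embryogenesis abundant (LEA) proteins, which are linked to survival of drying. After water uptake, stored messages are degraded and new ones are made for energy metabolism, cell wall loosening, the cytoskeleton and, later, DNA replication, and the root emerges when the cells of the axis elongate.

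Values are log2 intensities as deposited, so 1 unit is a 2-fold difference. A probe set, the group of probes for 1 transcript, was called when limma gave a Benjamini-Hochberg adjusted p under 0.05. The program limma fits each probe set separately and shares information on the spread among all of them. A sample's background, set so that 95% of 23 negative controls lay at or below it, was between 4.29 and 4.81 in the 4 samples. Array values are relative to the rest of the RNA, so a change common to most mRNAs would not appear. In a bulk sample, fewer cells of a type and less RNA per cell cannot be told apart. Of 17582 probe sets tested, 1267 carry a gene name, for 975 genes. Suffixes x and s in a probe set's identifier mark probes shared with related sequences, so values of close gene copies are uncertain.

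The samples differed in ways other than time. M4 and RB correlated at r = 0.966 over probe sets with 2014 of them more than 2-fold apart, and the quiescent pair at r = 0.989 with 336 apart. Poly-A spike-in controls, RNA added in preparation, had medians of 9.71 and 9.47 in the quiescent and 7.47 and 7.56 in the 24 h samples. For EF1a, signal at the 3′ end exceeded that at the 5′ end by 1.15 and 1.35 log2 units in quiescent and by 0.63 and 0.62 in 24 h samples. Adding that difference to the fit as a covariate gave 7821 calls in place of 8275. In the compared samples it goes with state, and its slope also comes from the other samples of the series. This fit therefore cannot tell it apart from time. The part of the spike-in difference in the results was not tested.

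The tissue label was checked against marker genes. Some embryo messages were bright in the quiescent samples and others were not. The legumin leg1 lay at background in all 4 samples, and the 5 probe sets of embryo regulators had a quiescent median of 5.83. Oleosins and globulins were chosen as markers of the embryo as a whole, so they do not single out the axis. The oil body protein oleosin ole1 lay at 14.01 and 13.94, and the dehydrin rab17 at 14.09 in each. Of 27 probe sets for endosperm genes, 15 lay at background in every sample, among them those of alpha-zein storage proteins and fl2. The summed linear signal of that list ranged from 1168 to 1225 in quiescent and from 915 to 1058 in 24 h samples, against 20972 and 20891 for the 4 storage globulin and legumin probe sets in quiescent axes. Exceptions above background were sh2 and bt2, subunits of the starch enzyme ADP-glucose pyrophosphorylase, betl3, fl1 and the gamma-zein gz27.

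As deposited, probe sets called lower were more numerous, and those with the largest changes were mostly higher. Of the 17582, 8275 (47.1%) were called, 3737 of them higher (21.3%) and 4538 lower (25.8%) at 24 h. A change of at least 2-fold was reached by 2856 of those called higher and 2692 of those called lower. At 4-fold the counts were 1340 and 763, at 8-fold 635 and 219, at 16-fold 287 and 39, and at 64-fold 26 and 0. The median called rise was 1.59 log2 units (3.01-fold) and the median called fall −1.15 (2.22-fold). Under 2-fold lay 881 (23.6%) of the higher calls and 1846 (40.7%) of the lower ones. The median change of all tested was −0.17.

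Which direction was more frequent turned with the scaling and the filter. With arrays centred on their medians, which moves the median of all tested to −0.45, 3037 were called higher and 7462 lower. At least 2-fold higher and lower were then 2294 and 3863, at least 4-fold 1080 and 1112, and at least 8-fold 519 and 308. With quantile normalization the 2-fold counts were 2701 and 2917 and the 4-fold counts 1273 and 865. Without the dimmest 25% of probe sets 3716 were called higher and 3513 lower. That filter used the mean over all biological samples of the series, most of them germinated. By its construction it keeps rises in preference to falls. In a fit of the 2 compared groups alone, 2900 were called higher and 2864 lower. Rises outnumbered falls at 8-fold and 16-fold under these scalings and without the dimmest probe sets, with 218 and 72 at 16-fold under centring.

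These classes rest on estimated changes, and fewer probe sets passed when the size itself was tested. With limma's treat test against a 2-fold minimum, 1449 were higher and 866 lower, and against a 4-fold minimum 513 and 80. From the other side, the 95% confidence interval lay within a 2-fold change for 7032 probe sets, beyond it for 2969 (16.9%) and across it for 7581 (43.1%). Only 4286 of the 7032 were above background in every sample of both states. For the rest, a narrow interval may describe signal at background. Of those 7032, 619 were called although the change was bounded below 2-fold. Raising values below a sample's background to that background moved the 16-fold counts to 267 higher and 30 lower.

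The 2 germinated samples shared the extremes in part, and M4 had more of them. Among called probe sets, 134 lay at least 16-fold below the quiescent mean in M4 and 9 in RB, with 8 in both. At least 64-fold above that mean lay 58 in M4 and 20 in RB, with 14 in both. At least 16-fold above it lay 370 in M4 and 232 in RB, with 199 in both. Of the 1340 probe sets called at least 4-fold higher, RB showed the smaller rise in 919, with a median RB to M4 ratio of log2 changes of 0.888. Of the 763 called at least 4-fold lower, RB showed the smaller fall in 609, with a ratio of 0.812. Without M4, 112 probe sets were at least 8-fold and 9 at least 16-fold lower, and without RB 339 and 137, so counts of the deepest falls depended on which 24 h sample was used. Without RB, 58 probe sets were at least 64-fold higher. Without quiescent sample 1, 62 were at least 16-fold lower.

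**Figure D1:**
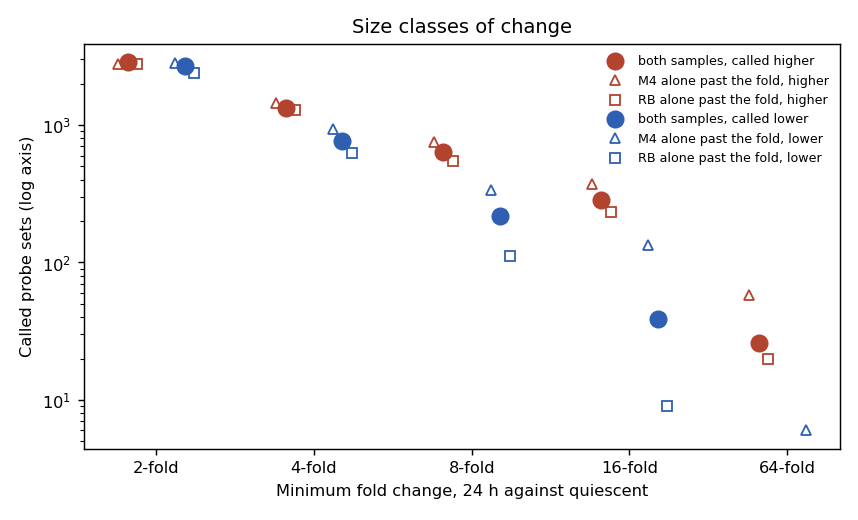
Number of called probe sets (y, log axis) at or past each fold (x) in the mean change, with the number past it in M4 alone and in RB alone, red for higher and blue for lower at 24 h. Higher and lower counts are close at 2-fold (2856 and 2692) and part from there to 287 and 39 at 16-fold, and M4 lies above RB in every lower class.

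The 10 largest rises among named probe sets belonged to 9 genes. The gene with the largest rise, pdc1, makes pyruvate decarboxylase, which takes pyruvate to acetaldehyde when oxygen is short. Its probe set read 4.83 and 5.53 in quiescent axes and 13.20 and 12.87 at 24 h. The quiescent samples lay close above background and the germinated ones near the top of the array range, a rise of 7.85 log2 units (231-fold, SE 0.24, adjusted p = 3.93e-07). A second pdc1 probe set rose by 1.17.

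Hemoglobin (Hb), a plant globin that handles nitric oxide under low oxygen, read 4.81 and 4.73 before and 13.33 and 11.31 after. It was 7.55 log2 units higher (SE 0.50, adjusted p = 5.61e-06), with quiescent sample 1 at its background. The lipoxygenase lox1, which oxidises fatty acids, rose on both of its probe sets. The brighter in quiescent axes went from 5.12 and 5.32 to 12.91 and 10.76 (98.1-fold, adjusted p = 3.67e-05), with M4 above RB by more than 2 log2 units.

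The beta-glucosidase glu1, which frees stored defence compounds, went from 5.30 and 5.04 to 12.50 and 12.12. Its rise of 7.13 log2 units (SE 0.33, adjusted p = 1.26e-06) was similar in both 24 h samples. The monosaccharide transporter MST1 read 4.89 and 4.88, then 12.62 and 11.19, a rise of 7.02 (SE 0.41, adjusted p = 3.05e-06). The chitinase chn1 rose from 4.70 and 5.26 to 12.32 and 10.12 (SE 0.63, adjusted p = 5.78e-05), with quiescent sample 1 at its background and M4 again the higher 24 h sample. The beta-expansin expb8, which loosens grass cell walls, rose by 6.15 (71.2-fold, adjusted p = 7.00e-07), from 5.64 and 5.03 to 11.77 and 11.21. A probe set without a gene name showed the largest rise of all, from background (4.44 and 4.23) to 12.91 and 12.00, at least 216-fold.

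The 10 largest falls among named probe sets belonged to 10 genes. The tonoplast aquaporin tip3-1, a water channel of seed protein storage vacuoles, read 13.58 and 13.36 in quiescent axes and 7.84 and 9.25 at 24 h. It fell by 4.93 log2 units (30.4-fold, SE 0.41, adjusted p = 2.05e-05), and its relative tip3-2 fell by 3.44, to 7.52 in M4 and 7.42 in RB. Both stayed above background in every sample.

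The vicilin-type storage globulin glb1 read 13.82 and 13.80, then 9.27 and 9.10, a fall of 4.62 (24.7-fold, SE 1.11, adjusted p = 0.00780). The other globulin that fell, glb2, went from 12.64 and 12.68 to 7.75 and 8.16. Its fall of 4.71 (26.2-fold, SE 0.58, adjusted p = 1.90e-04) had a smaller standard error. The 4 samples agreed closely within each state for both genes, and the standard error also carries the spread of the polysomal samples.

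The metallothionein gene mtl2, whose protein binds metal ions, was among the 6 brightest probe sets in quiescent axes at 14.06 and 14.03. At 24 h it read 8.36 in M4 and 11.11 in RB, a fall of 4.31 (SE 1.04, adjusted p = 0.00779) in which the germinated samples lay far apart. Other falls among the 10 largest in named genes were sus2, a sucrose synthase (−3.42), HMT-4, a homocysteine methyltransferase (−3.14), and lkrsdh1, which degrades lysine (−3.10). Asparagine synthetase asn1 (−3.10) and the seed peroxiredoxin per1 (−3.07) complete them. In per1 the germinated samples again differed, at 9.46 in M4 and 11.42 in RB.

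**Figure D2:**
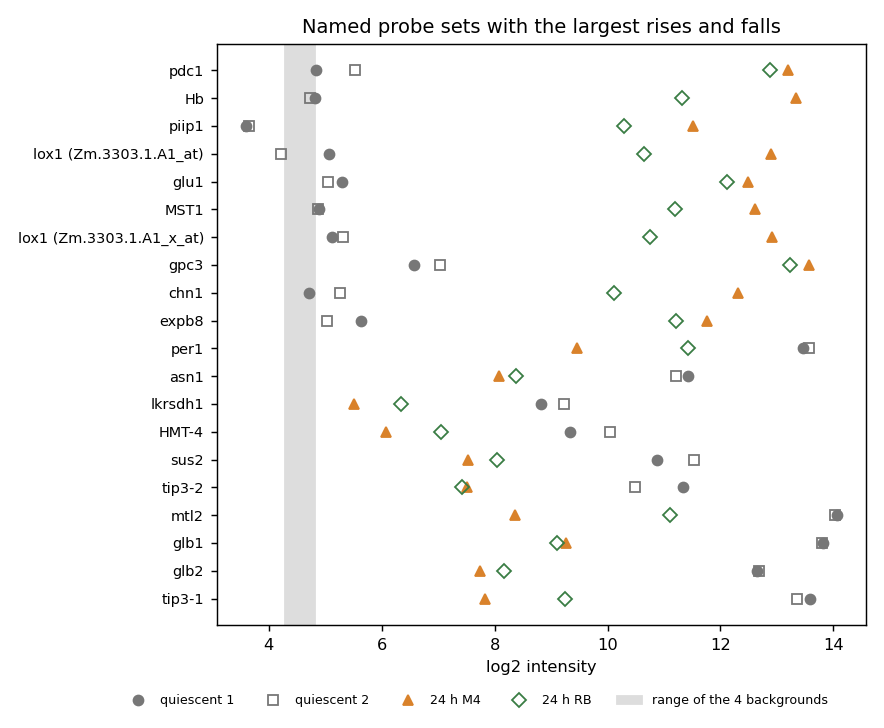
Log2 intensity (x) of the 10 named probe sets with the largest rises and the 10 with the largest falls (y) in each of the 4 samples, with the range of the 4 backgrounds shaded. Quiescent and 24 h samples do not overlap in any of them, which was a condition of the choice and holds for 72.4% of all tested. M4 and RB lie furthest apart in mtl2 (8.36 and 11.11), lox1, chn1 and Hb.

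Genes of 24 lists with known roles were then counted, against the 21.3% of all probe sets called higher and 25.8% called lower. The lists hold named probe sets only. Of all 1267 named ones, 365 were called higher and 243 lower, so rises outnumbered falls there, unlike among all tested. The list members lead with the messages of the dry seed. Of 7 LEA and dehydrin probe sets, 4 fell, those of rab17 (−2.63), the LEA gene mlg3 (−2.16), emb5 (−1.81), an Em-type LEA gene, and a4Lea (−1.09). For rab17, 14.09 in both quiescent samples went to 10.42 in M4 and 12.50 in RB (SE 0.74, adjusted p = 0.0164). The other 3 probe sets all belong to dhn2, listed as a dehydrin by its symbol, and rose by 3.18 to 3.57. One of them read 9.20 and 9.39, then 12.59 and 12.63 (SE 0.18, adjusted p = 2.55e-06), with 24 h samples close together and well above both quiescent ones. Without M4, 2 of the 4 falls remained called, and without RB 3.

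Storage protein and oil body messages gave 3 lower calls. Besides glb1 and glb2, the legumin leg1 was called lower (−0.53) but lay at background in all 4 samples, and glb3 was not called. The oleosin ole1 read 14.01 and 13.94, then 11.69 and 12.98, and its change of −1.64 was not called. The embryo regulator vp1, a transcription factor of seed maturation, was lower on 2 of 4 probe sets (−1.02 and −0.91), with the brightest at 9.83 and 10.12 against 9.28 and 8.64. The anthocyanin activator c1 fell on 1 of its 2 probe sets, from 7.04 and 7.58 to 5.19 in RB and to background in M4. With M4 raised to its background, that fall was at least 5.33-fold.

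Tubulins, the building blocks of microtubules, mostly rose. Of 21 probe sets for 12 genes, 19 rose and none fell, with a list median of +2.03. The beta-tubulin tub4 went from 6.25 and 6.75 to 11.56 and 11.54 (33.1-fold, SE 0.29, adjusted p = 2.85e-06), and the alpha-tubulin tua5 from 6.29 and 6.55 to 11.36 and 11.49 (32.1-fold, SE 0.16, adjusted p = 3.93e-07). In both genes the 24 h samples were nearly equal. No tubulin probe set ranked in the top 5% of quiescent axes and 6 did at 24 h. The 2 not called were 1 of tubg1 (−0.24) and 1 of tua1 (+0.43), and tubg1 was called lower with arrays centred on their medians. Of 10 probe sets for actin-binding profilins and depolymerizing factors, only pro4 (+1.65) and pro5 (+0.46) were called, and adf3 lay between 11.98 and 13.14 in every sample.

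Cell wall genes mostly rose. Of 17 probe sets for expansins and the xyloglucan-remodelling enzyme gene xet1, 10 rose and none fell (median +1.47). The alpha-expansin expa1 read 6.28 and 5.33, then 10.50 and 11.08 (31.7-fold, SE 0.50, adjusted p = 5.18e-05), and expb7 rose by 4.36 and xet1 by 3.84. With quantile normalization or with centring, 2 of the list were also called lower. Of 13 cellulose synthase probe sets, 7 rose and 1 fell (median +1.45). The cellulose synthase cesa2 read 5.58 and 5.65, then 9.96 and 9.71 (18.6-fold, SE 0.23, adjusted p = 2.38e-06), while cesa3 fell from 10.50 and 10.56 to 9.39 and 8.72 (−1.47).

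Aquaporins, membrane channels for water, were called in both directions at about the shares of all probe sets. Of 36 probe sets for 28 genes, 8 rose (22.2%), 9 fell (25.0%) and 19 were not called. Beside both tip3 genes, falls were seen for tip1-1 (−1.22), pip1-2 (−1.31), sip1-1 (−1.13) and 4 of 5 probe sets of pip1-3 (−1.20 to −1.03). Rises were led by the tonoplast channel tip2-1, from 6.01 and 6.42 to 12.32 and 11.48 (51.6-fold, SE 0.36, adjusted p = 4.73e-06). The plasma membrane channel pip2-6 rose from 6.76 and 7.60 to 12.89 and 12.03 (38.9-fold, SE 0.36, adjusted p = 6.24e-06). The summed linear signal of the list was 52207 and 46770 before and 49063 in M4 and 27884 in RB, so the total of M4 lay between the quiescent ones and that of RB below both.

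Genes of DNA replication, which copies the genome before division, came next. Of 10 probe sets, 7 rose and none fell (median +2.59), for both genes of the sliding clamp PCNA, the helicase subunits mcm6 and mcm7 and the origin recognition subunit orc2. The clamp gene pcna2 read 5.73 and 6.20, then 10.85 and 10.83 (29.4-fold, SE 0.19, adjusted p = 6.40e-07). The helicase gene mcm7 went from 5.71 and 5.97 to 8.76 and 9.54 (9.91-fold). The origin genes orc1, orc3 and orc4 changed by 0.46 to 0.59 and were not called.

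Among 12 probe sets for cyclins, kinases and their regulators, 1 rose and 2 fell. The kinase wee1, which restrains cell division, rose by 1.23, and the retinoblastoma-related genes rbr2 and rbr1, which restrain entry into DNA synthesis, fell by 1.70 and 1.17. A second rbr1 probe set was not called (+0.27). The kinase gene cdc2 lay between 9.28 and 10.53 over 2 probe sets with changes of 0.26 and 0.30, not called. Of 11 histone probe sets, 5 rose and 4 fell. The histone H2B gene his2b5 read 7.35 and 7.10, then 12.09 and 11.26 (21.8-fold, SE 0.33, adjusted p = 1.08e-05), and the centromere histone cenH3 fell on both probe sets (−1.16 and −1.03). Without RB, 1 histone probe set was called lower. Probe sets of his1 disagreed, with 3 higher (3.81 to 4.47), 1 lower (−0.76) and 2 not called.

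In glycolysis and fermentation, 12 of 23 probe sets rose and 1 fell (median +0.94). The cytosolic glyceraldehyde-3-phosphate dehydrogenase gene gpc3 read 6.57 and 7.03, then 13.58 and 13.24 (97.6-fold, SE 0.19, adjusted p = 3.93e-07), and gpc4 rose by 4.27. Their relatives gpc1 and gpc2 were bright in both states and not called, with gpc2 at 13.46 and 13.33 against 13.50 and 13.15. The alcohol dehydrogenase adh1, the last step of ethanol fermentation, rose by 0.78 from an already bright 12.76 and 12.82. In the second gene, adh2, the rise of 4.26 rested on uneven samples, 7.41 and 5.74 before and 12.22 and 9.45 after. Enolase eno1 rose by 2.14 and 3.30 on 2 probe sets with another at background, eno2 changed by −0.07, and phosphofructokinase pfk1 fell by 1.96.

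Translation genes were bright in both states. Of 27 cytosolic ribosomal protein probe sets, 3 rose, 5 fell and 19 were not called, with a median change of −0.01 and 17 of them in the top 5% in each state. Of the proteins called, rps21 rose most (+1.48), from 9.97 and 10.12 to 11.13 and 11.91, and rpp0 fell most (−1.71), from 8.32 and 9.21 to 6.66 and 7.46. A brighter probe set of rpp0 fell by 0.76, and rpp2b fell by 0.97. Of 26 translation factor probe sets, 4 rose and 4 fell, among them ef1a (+1.43 on 1 of 3 probe sets) and the initiation factor gene eif5 (−1.33). With arrays centred on their medians the lower calls became 10 for ribosomal proteins and 12 for translation factors, as the centring shifts the median of all probe sets to −0.45.

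Genes of detoxification and stress followed. Of 35 glutathione S-transferase probe sets, 19 rose and 3 fell (median +1.06). The transferase gst2, whose enzyme family joins glutathione to foreign or oxidised compounds, read 7.31 and 7.05, then 12.78 and 12.33 (41.5-fold, SE 0.18, adjusted p = 3.93e-07). Of its family, gst19 fell most (−2.51). Of 11 antioxidant enzyme probe sets, 3 rose and 6 fell, with per1 and the catalase cat1 (−0.90 on its brightest probe set) lower and the catalase cat3 higher (+1.27). With centring, 0 of these 11 rose and 7 fell. Of 4 class III peroxidase probe sets, pox1 (+1.72) and pox3-1 (+1.71) rose.

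Of 15 chaperone probe sets, 4 rose and none fell. They were the endoplasmic reticulum chaperones bip1 (+1.87) and bip2 (+2.14) and the organelle chaperonins cpn60I (+2.04) and cpn60II (+1.02). In the heat shock genes hsp101, hsp18f, hsp22 and 1 of 2 probe sets of hsp18c, M4 lay above and RB below both quiescent samples. For hsp101, 10.50 and 10.79 in quiescent axes stood beside 11.62 in M4 and 8.38 in RB, and none of the 4 genes was called.

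The remaining lists gave few calls. Of 22 photosynthesis probe sets, 3 rose and 2 fell, and the 3 rises (4.22 to 4.75) were all probe sets of ppdk1, pyruvate phosphate dikinase, for which another fell by 1.35 and another lay at background. In the glyoxylate cycle, which turns stored oil into sugar, malate synthase mas1 fell by 0.98 and neither probe set of isocitrate lyase was called. None of 4 shoot meristem probe sets, kn1 among them, was called, at changes of −0.37 to +0.60. Of the 27 endosperm marker probe sets, 7 fell and 1 rose, with sh2 (−1.56) and bt2 (−1.50) the largest and 2 of the 7 at background in both states. With centring 18 were called lower and with quantile normalization 4. Of 4 aleurone and anthocyanin probe sets 1 fell, and of 5 for embryo regulators 2 fell. Of the 27 maize controls kept, 6 rose and 2 were called lower, with actin from −1.92 to +4.22 and GAPDH from −0.54 to +5.19 between probe sets. Among all 151 genes with several probe sets, 8 had calls in opposite directions, his1, piip1 and ppdk1 among them.

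Small counts in these lists moved with the 24 h sample used. Without M4, ribosomal proteins had 2 higher and 1 lower call, translation factors 2 and 2, and antioxidant enzymes 1 and 3. Without RB, antioxidant enzymes had 2 and 3, endosperm markers 0 and 3, and cellulose synthases 11 and 1. Counts of DNA replication genes were the same in both cases, and those of tubulins higher were 18 without M4 and 19 without RB.

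**Figure D3:**
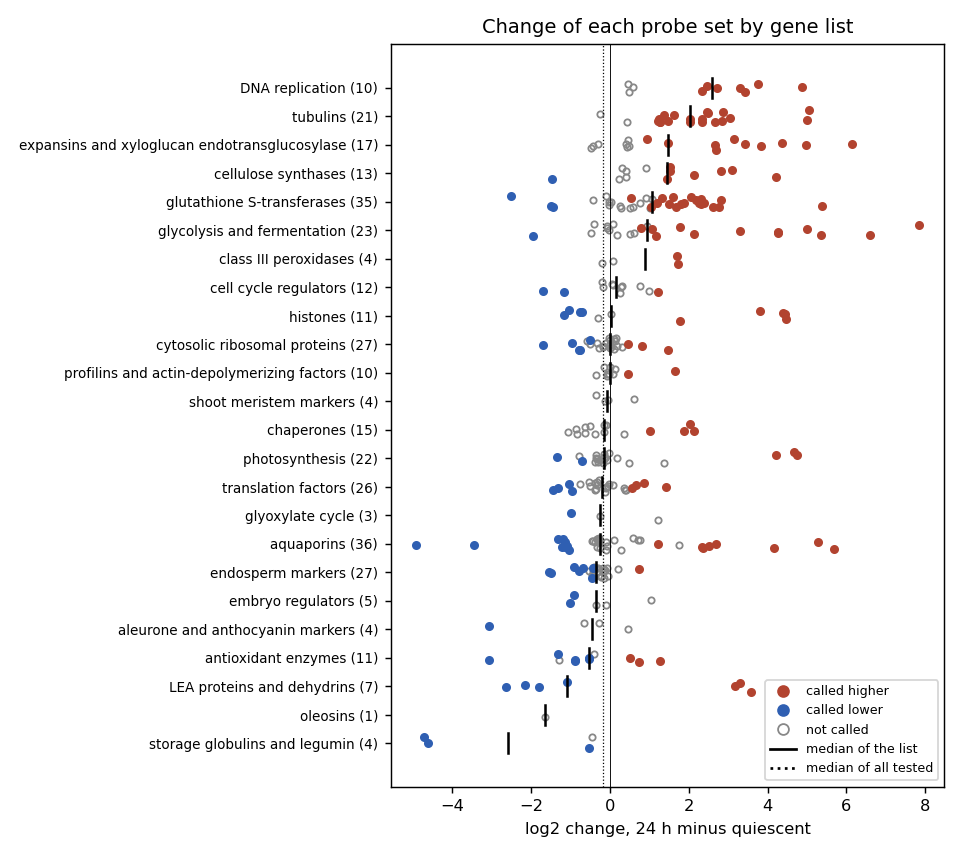
Log2 change, 24 h minus quiescent (x), of each probe set in 24 gene lists (y, number of probe sets in brackets), filled where called, with the list's median as a bar and the median of all tested (−0.17) as a dotted line. DNA replication genes and tubulins lie to the right (medians +2.59 and +2.03), globulins and most LEA genes to the left, and ribosomal proteins around 0.

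The order of signals was compared next. Array signal depends on probe affinity, so ranks compare signals and not molecules. Over all probe sets, Spearman's rho between the states' means was 0.863, against 0.988 within quiescent and 0.965 within 24 h samples and 0.830 to 0.875 for the 4 pairs across states. Of all probe sets, 40.5% stayed in the same decile of the ranking, and the median shift was 6.44 percentile points. The lowest decile held 81.1% of its members and the highest 62.5%, while the middle 2 held 26.0% and 24.0%. Between 80.8% and 84.3% of probe sets lay above background in each sample, so the lowest decile holds signals at or near background. Moves upward were the longer ones. A rise of 50 points or more was seen in 191 probe sets and a fall of that size in 16, and 75 went from the lower 50% to the top decile and 11 the other way.

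**Figure D4:**
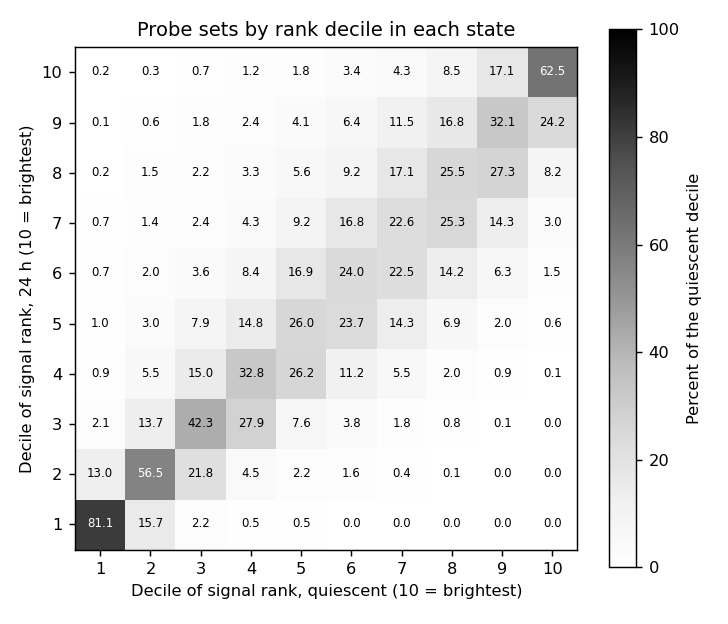
Share of each quiescent decile of signal rank (x) found in each 24 h decile (y), in percent of the quiescent decile, with 10 the brightest. The corners keep most of their members (81.1% and 62.5%), those of the lowest decile at or near background. The upper left holds more than the lower right.

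The brightest signals were exchanged in part. Of the 176 probe sets that make up the top 1%, 91 (51.7% of each list) were shared by both states, whereas the 2 quiescent samples shared 152 and the 2 germinated samples 142. The 85 that were in the quiescent list alone had a median 24 h percentile of 97.7, and 50 of them were called lower. The 85 in the 24 h list alone had a median quiescent percentile of 96.0, 64 were called higher, and 3 came from below the quiescent median. The top 1% carried 14.0% to 14.6% of the summed linear signal in each of the 4 samples.

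The 5 brightest named probe sets of quiescent axes were gos2, a homologue of the initiation factor eIF1, esp1, rab17, the glycine-rich RNA-binding protein gene grp1 and mtl2. In 24 h axes they were grp1, gos2, eno1, tua4 and adh1. The gene grp1 read 14.13 and 14.04, then 14.25 and 14.20, ranks 5 and 1, and gos2 14.14 and 14.17, then 13.56 and 13.99, ranks 2 and 10. Neither was called. The alpha-tubulin tua4 moved from rank 2088 to 23 with 10.64 and 10.79 before and 13.64 and 13.50 after, and eno1 from rank 1124 to 16. In the other direction rab17 went from rank 4 to 1114, mtl2 from 6 to 3768, glb1 from 13 to 5095 and tip3-1 from 61 to 6643. Among the genes with the largest rises, pdc1 went from rank 13285 to 150 and Hb from 14295 to 472. The gene gpc3 went from 9785 to 63, and 1 probe set of piip1 from 17028 to 1737.

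Calls were spread unevenly over the range of signal. Probe sets were ranked by their mean over all biological samples of the series, most of them germinated. A rise therefore moves a probe set toward the bright classes and a fall toward the dim ones. The uneven spread of directions is thus partly set by the ranking. In the dimmest 20% by this mean 0.398% were called higher and 21.8% lower, and in the brightest 20% 35.5% and 20.2%. Rises of at least 4-fold numbered 0 in the dimmest 20% and 495 in the brightest, and falls of that size 66 and 49. The dimmest 20% had means of at most 4.75, within the range of the backgrounds.

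Switching between background and expression was rarer than change above background. Both states were above background in every sample for 13508 probe sets (76.8%), of which 3381 were called higher and 3693 lower, and at background in every sample for 2219. Of these 2219, 236 were called lower and 1 higher, differences that have no fold. A total of 274 probe sets (1.56%) were at background in both quiescent samples and above it in both 24 h samples, and 189 (1.07%) the reverse. Of those switched on 181 were called, and of those switched off 177, where 47.1% of all tested were called. The rule and the calls used the same samples, so these counts are no separate evidence of switching. A further 1392 had samples of 1 state on both sides of background, including 371 above it in both quiescent samples and at background in M4 alone, against 31 at background in RB alone. With both quiescent samples at background, 180 were above it in RB alone and 40 in M4 alone. Background was 4.61 in M4 and 4.29 in RB, and the part of that difference in these counts was not tested.

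Switched-on probe sets reached higher signals than switched-off ones had held. With values below background raised to it, the median change was at least 2.28-fold for those switched on and at least 1.56-fold for those switched off. At least 4-fold were 98 of 274 and 17 of 189, and at least 16-fold 30 and 0. Above the array median lay 68 of the first and 2 of the second. Many crossings were marginal, since only 131 and 21 cleared background by 1 log2 unit in every sample, and in 34 of the 274 the bounded change was 0 or negative because the 24 h backgrounds were on average lower. Without quiescent sample 2 503 would count as switched on and without M4 454, and without quiescent sample 1 382 would count as switched off and without RB 560, since fewer samples then have to meet the rule.

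**Figure D5:**
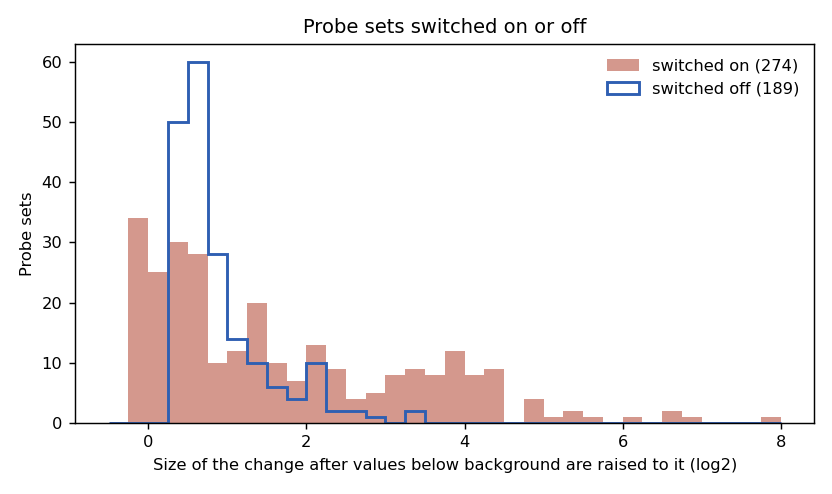
Number of probe sets (y) by size of the change in log2 units after values below background were raised to it (x), for the 274 switched on (filled) and the 189 switched off (outline). The outline ends before 4 (16-fold), while 30 of the filled set lie beyond it.

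The brightest named probe set switched on was one of piip1, at 3.60 and 3.65 in quiescent axes and 11.51 and 10.29 at 24 h. It was at least 73.7-fold higher (limma adjusted p = 4.10e-06), but another probe set of piip1 was called lower. The mitochondrial alternative oxidase aox3 read 4.03 and 4.08, then 10.59 and 8.71, at least 31.0-fold higher (adjusted p = 2.36e-04). The pathogenesis-related gene PR-5, of the thaumatin family, went from 4.38 and 4.06 to 9.73 and 8.55, at least 21.8-fold. In each of the 3 genes M4 was the higher 24 h sample.

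In bx1, which opens the pathway to benzoxazinoid defence compounds, the order was reversed, with 4.44 and 4.29 before and 8.01 in M4 and 9.89 in RB (at least 19.1-fold, adjusted p = 0.00742). The probe set of nar read 4.21 and 4.40, then 10.56 and 7.13 (at least 17.7-fold, adjusted p = 0.00197). Chosen after their values were seen, the cytokinin oxidase genes cko2 (10.10 and 6.94 at 24 h) and cko3 (8.60 and 5.00) and the cytokinin response regulator crr1 (7.14 and 6.31) were also switched on.

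Among named probe sets, 26 were switched on and 6 off, and only trm1 of the latter had been clearly above background. The m-type thioredoxin trm1, a redox protein of plastids, read 7.05 and 7.12, then 4.02 and 4.22, at least 6.23-fold lower (adjusted p = 2.25e-06). The endosperm genes ebe1 and ebe2, Zea m 3 and m25 started between 4.60 and 5.27, with bounds of 1.34-fold to 1.54-fold.

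Levels in the other germinated samples, which the switching rule did not use, were set beside these classes. All 3 polysomal samples without insulin were above background for 244 of the 274 switched on (89.1%), against 79.6% of all 17582 and 0.901% of the 2219 at background in both states. The same samples were all above it for 5 of the 189 switched off and all at background for 139. In the total RNA of insulin-treated axes, 256 of the 274 lay above background, against 80.6% of all tested, and 171 of the 189 at it.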

How the data were processed

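Of 17734 probe sets on the 14 arrays of the series, 17582 were tested, with 27 maize gene controls kept and 152 other controls left out. The deposited values were used as log2 intensities because of their range. The submitters' processing notes name limma without a version, and the sources used here do not state how the authors corrected background, normalized and summarised probes. Technical arrays were averaged, and all 11 biological samples in 5 groups were fitted with limma 3.58.1 (lmFit, eBayes, treat) in R 4.3.3, with 6 residual and 3.21 prior degrees of freedom. Adjusted p-values are Benjamini-Hochberg over all tested. The fit was tested on simulated data.

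Gene names came from GEO's platform annotation, which gave 1 gene for 1452 probe sets and several for 1, and 1377 were matched to RefSeq. The lists and genes were chosen with earlier results of these data known. Named genes were the maize controls, the 10 largest rises and falls, the 5 brightest in each state and among those switched on and off, and up to 4 per list, and sentences on lists add other members, chosen after their values were seen. The labels do not say whether replicates came from separate seed lots, so p-values reflect the spread of these samples alone, which may be technical, and the number of arrays limits the precision. Alternatives were other scalings, uses of technical arrays, filters, priors, groups in the fit, background levels and left-out samples.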

Additional observations from a re-analysis of the deposited data

Results flagged for a closer look

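Outside the comparison, controls gave signal above every one of 23 negative controls, whose highest values lay between 4.89 and 5.06 in the 4 samples. The median over spiked poly-A RNAs was 9.71 in quiescent sample 1, 9.47 in quiescent sample 2, 7.47 in M4 and 7.56 in RB. Hybridisation controls, added after labelling, were at a median of 10.19 in quiescent sample 1, 10.69 in quiescent sample 2, 9.03 in M4 and 10.13 in RB. Of 66 reporter probe sets, 6 exceeded every negative control in all 4 samples, at levels from 5.13 to 14.14. With 2 samples a group, no test for a stray sample was made.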

How the results depend on the processing

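No paired analysis was possible because the quiescent samples are numbered 1 and 2 and the 24 h samples are named M4 and RB, so they share no number. With all samples, alternatives called between 5764 (a fit of the 2 compared groups alone) and 10499 probe sets (arrays centred on their medians), and leaving out 1 sample 6441 to 7851. A 2-fold minimum left 2315. Over 13 settings 4951 were called each time in the same direction, 2510 higher and 2441 lower, and no call in them was opposite. Centring gave 3037 higher and 7462 lower, a higher share of 28.9% in place of 45.2%. The median of all probe sets was −0.17 as deposited, −0.09 with quantile normalization and −0.45 with centring.

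Falls of at least 16-fold went from 39 to 72 with centring and to 9 to 137 with 1 sample left out, those of at least 8-fold to 112 to 339, and rises of at least 64-fold to 20 to 58. The count switched on was 420 with background 1 log2 unit above the median negative control, 131 with a margin of 1 log2 unit and 314 to 503 with 1 sample left out. The count switched off was 436 with background at the highest negative control, 21 with the margin and 220 to 560 with 1 sample left out. The rank correlation between states was 0.835 to 0.878 with 1 sample left out. Centring, the margin and left-out samples act by their construction, and other causes were not tested. Of 107 named probe sets called, 90 kept the call under each of 13 alternatives that tested them and 73 also against the 2-fold minimum, and none reversed.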
